A study of Drosophila melanogaster with 43 samples.

Results

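The genes described here encode the enzymes, channels and scaffold of the fly phototransduction cascade. They are Galpha49B and Gbeta76C, norpA, trp and trpl, inaD, inaC and ninaC, rdgA and rdgB. They were taken by symbol from the gene names of the head tables, without use of measured values. All 10 were found, among 14442 gene features with a value in each of the 8 named head libraries. The study is about the RNA-binding proteins Orb and Orb2, which belong to the CPEB family of translational regulators. Fly heads were extracted and treated with biotinylated isoxazole (b-isox), a small molecule that brings down RNA together with proteins rich in low-complexity sequence. The data are 6 pellet and 6 supernatant libraries of heads, and 4 libraries of S2 cells, an embryo-derived fly cell line that resembles blood cells.

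In a fly photoreceptor, light-activated rhodopsin turns on a Gq protein. The Gq protein activates a phospholipase C, which cleaves the membrane lipid PIP2 and leads to opening of the TRP and TRPL cation channels. A scaffold holds channel, phospholipase and protein kinase C together in the rhabdomere, the light-sensing membrane stack. A diacylglycerol kinase and a phosphatidylinositol transfer protein return the lipids to the membrane. Loss of several of these genes leaves flies blind or makes their retinas degenerate, which is the source of names such as norpA (no receptor potential) and rdgA (retinal degeneration).

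Every head library, pellet and supernatant alike, came from flies labelled Orb2 WT-GFP, kept on semi-defined medium at 25 °C, so all heads carried the same tagged orb2 gene. The labels used here give neither age nor sex of the flies. In S2 cells, the Orb2B group overexpressed Orb2B, a form of Orb2, and received 250 µM copper sulfate and 300 µg/ml hygromycin B. The background group received 250 µM copper sulfate alone. Both S2 groups grew at 27 °C, with 2 libraries each. The orb2 gene was at 2509 and 2850 RPKM (reads per kilobase of transcript, scaled to library size) in Orb2B cells, against 7.5 and 8.73 RPKM in background cells. Libraries from the crosslinking experiments of the series were not used here.

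Head values are FPKM, Cufflinks' estimate of fragments per kilobase of transcript scaled to library size, and the sequencing depth behind them is unknown. Replicates 1 to 4 of both fractions carry gene names and were tested. Replicates 5 and 6 hold assembled loci without names, and their values at the members' positions are given apart, for the 8 members that a locus of theirs overlapped by at least 50% both ways. All 10 photoreceptor markers, ninaE among them, were above 0 in all 8 head libraries, with a summed scaled level of 8242 to 28976 in pellets and 8093 to 10847 in supernatants. Most of each sum was ninaE, at a scaled 7546 to 28058 in pellets and 7529 to 10042 in supernatants. In S2 cells the same list summed to 1.71 to 2.14 RPKM with Orb2B and 1.42 to 1.58 RPKM in background, and boss and Arr1 were listed at 0 in all 4 libraries. The labels do not say that replicates came from separate animals or cultures. The p-values therefore measure only the spread between these libraries, which may be technical. Heads were measured in bulk, so fewer photoreceptors and less RNA per photoreceptor cannot be told apart.

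All members were above 0 in all 8 head libraries. Their median levels, which are per kilobase and so may be set side by side, ran in pellets from 826 FPKM for rdgA to 15.4 FPKM for inaC. Below rdgA came trpl at 402 (3 of its 4 pellet estimates are marked as failed), ninaC at 355, norpA at 329 and trp at 238 FPKM. The order went on with inaD at 145, Galpha49B at 59.3, rdgB at 49.9 and Gbeta76C at 18.0 FPKM. Only 3 neighbouring pairs of the pellet order did not overlap, which were rdgA and trpl, trp and inaD, and rdgB and Gbeta76C. In supernatants trp had the highest median, 2413 FPKM, and inaC again the lowest, 6.52 FPKM. There only inaD and rdgB, and Galpha49B and Gbeta76C, were neighbours whose libraries did not overlap.

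**Figure D1:**
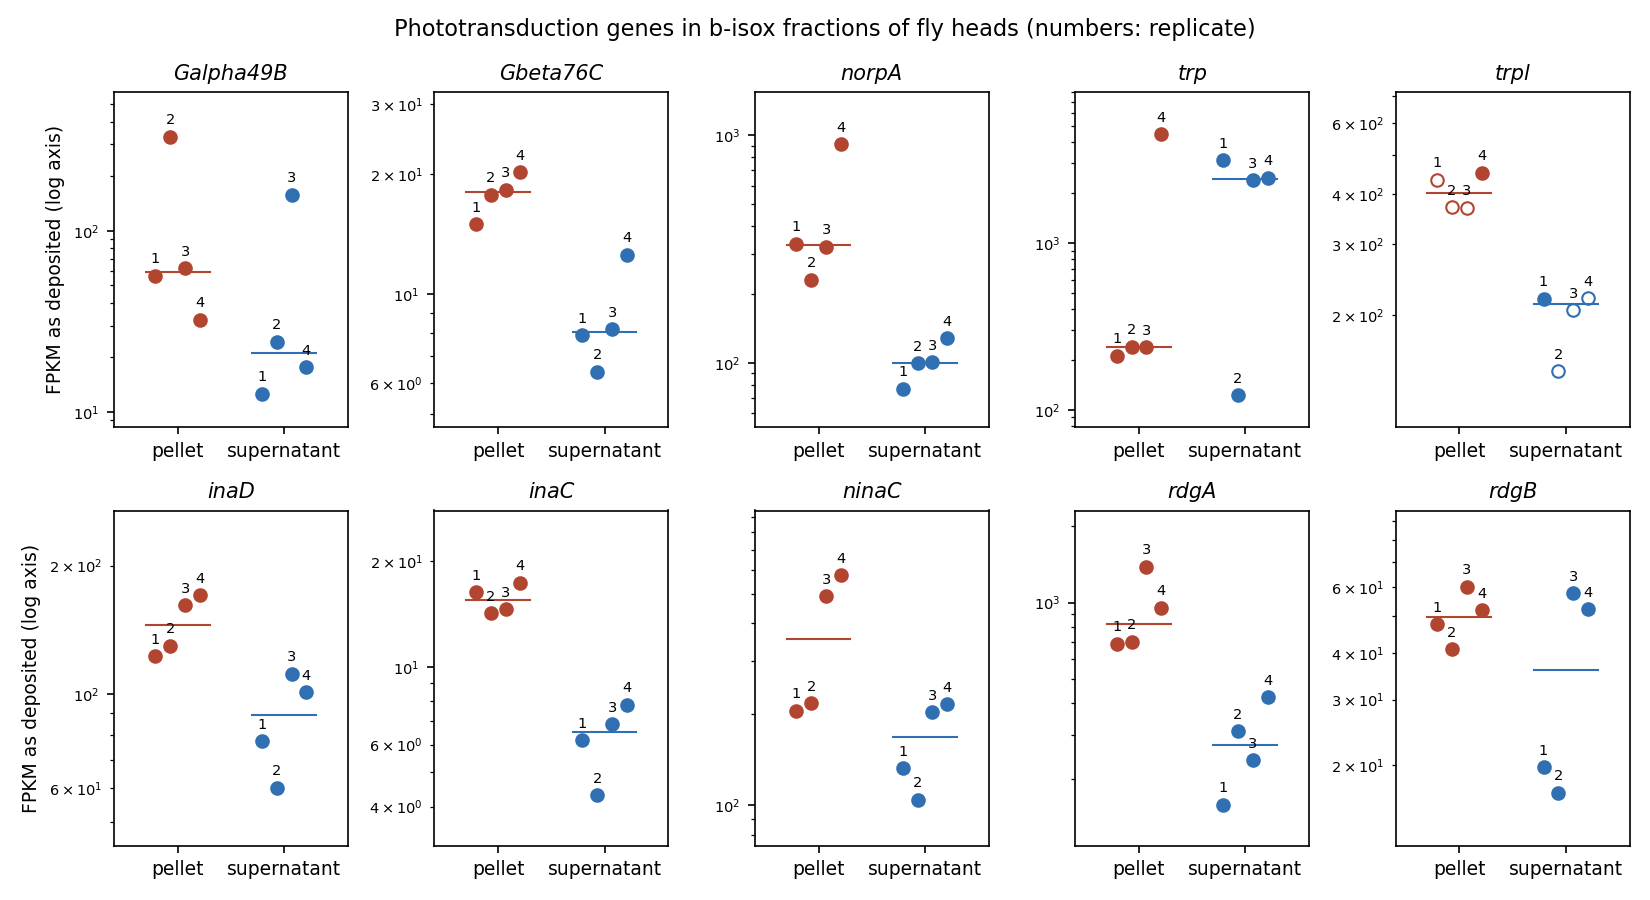
FPKM as deposited (log axis, a separate scale in each panel) of the 10 genes in the pellet and supernatant libraries of fly heads. Numbers are replicates, lines are medians, and open circles are values that Cufflinks marked as failed. The 1 high pellet value and 1 low supernatant value of trp, at 4463 and 122 FPKM, stand out, as do the high values of Galpha49B in pellet 2 and supernatant 3.

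Relative to the typical gene, none of these genes differed between pellet and supernatant beyond the spread of the libraries. Before the test each library was divided by its median ratio to the other libraries, a scaled value, because nearly all genes had higher FPKM in pellets. With the deposited values the median log2 difference of all features was 0.87, and with scaled values it was -0.03. On scaled values 0 of the 9 members tested were higher and 0 were lower (limma, two-sided, Benjamini-Hochberg adjusted p under 0.05), against 2.05% of all features higher and 1.77% lower. At an unadjusted p under 0.05 the count was also 0 of 9, against 22.4% of all features. With the replicate number as a block, 0 of 9 were called, against 6.92% of features higher and 8.32% lower, and 1 of 9, inaC, had an unadjusted p under 0.05, against 35.0% of features. The median log2 difference was 0.08 over the members and -0.03 over all features. The members trp and rdgA were tested as features that hold neighbouring genes too, and trpl was left out for failed estimates.

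With the values as deposited, 5 of 9 members were higher in pellets, against 51.4% of all features, and 0 were lower, against 0.5%. Those 5 were norpA, inaC, inaD, Gbeta76C and rdgA. On the same values every pellet library lay above every supernatant library for 6 of the 10, the same 5 and trpl, against 47.6% of features, and for 0 every pellet library lay below, against 0.256%. On scaled values the 2 fractions overlapped for all 10, while 7.99% of features lay wholly higher and 7.86% wholly lower in pellets. With the deposited values the members' shares were thus near those of all features.

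**Figure D2:**
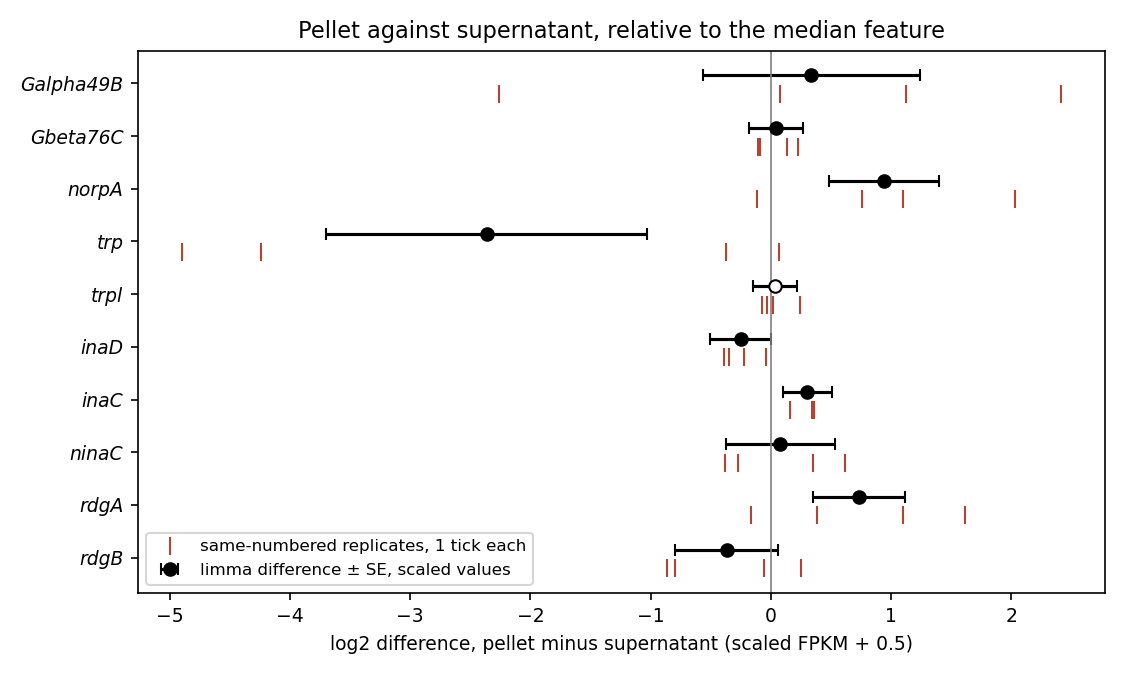
Log2 difference, pellet minus supernatant, of scaled FPKM + 0.5 for the 10 genes. Points with bars are the limma difference ± SE, red ticks are the differences of same-numbered replicates, and the open point is trpl, fitted only with its failed estimates included. Differences of inaC lie above 0 and those of inaD below 0 in 4 of 4 pairs, while trp spans -4.90 to 0.06.

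Galpha49B encodes the Gq alpha subunit that rhodopsin activates. It lies at 8500154 to 8510702 on chromosome arm 2R (build dm3). Its pellet values were 56.4, 331, 62.2 and 32.4 FPKM in replicates 1 to 4, and its supernatant values were 12.6, 24.4, 158 and 17.7 FPKM. Pellet 2 and supernatant 3 were high, and the other 6 libraries lay between 12.6 and 62.2 FPKM. Cufflinks' bounds on the 2 high values, 309 to 352 FPKM in pellet 2 and 147 to 169 FPKM in supernatant 3, do not reach any other library of the fraction. The fractions overlapped, and the log2 difference was 0.34 (SE 0.90, limma adjusted p = 0.856). The difference was 0.07 without replicate 1, -0.36 without replicate 2 and 1.21 without replicate 3, none of them called.

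Gbeta76C encodes the eye-specific beta subunit of the same G protein, at 19680699 to 19683122 on 3L. It was at 14.97, 17.8, 18.3 and 20.2 FPKM in pellets, against 7.90, 6.40, 8.17 and 12.6 FPKM in supernatants. All deposited pellet values were higher, but scaled levels of 12.7 ± 2.63 in pellets and 12.4 ± 3.23 in supernatants (SD, n = 4 each) were nearly alike. The log2 difference was 0.04 (SE 0.23, limma adjusted p = 0.937).

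The phospholipase C gene norpA, at 4216659 to 4259519 on X, makes the enzyme that splits PIP2. Its pellet libraries had 334, 232, 324 and 912 FPKM and its supernatant libraries had 76.9, 99.5, 101 and 128 FPKM. Pellet 4 was the highest, at 7.12 times its supernatant partner, while pellet 2 was 2.33 times its partner. Scaled, norpA was at 332 ± 258 in pellets and 144 ± 28.2 in supernatants (SD, n = 4 each), with a log2 difference of 0.94 (SE 0.45, limma adjusted p = 0.262). A larger log2 difference than that of 91.2% of features thus stayed within the spread of the libraries. It was above 0 in 3 of 4 same-numbered pairs, from -0.11 in pair 2 to 2.03 in pair 4, and was 0.58 without replicate 4. Cufflinks gave norpA a lower bound of 0 in pellet 2, supernatant 2 and supernatant 3, with an upper bound of 4226 FPKM in pellet 2, so those estimates are loose.

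The founding TRP channel gene, trp, carries most of the light-induced calcium entry. Its feature, at 25738580 to 25746011 on 3R, includes the neuropeptide gene capa, since 1 entry, that of supernatant 3, joined both. Where listed apart, in 7 libraries, capa had 6.76 to 21.9 FPKM. The trp feature had 211, 238, 238 and 4463 FPKM in pellets, against 3123, 122, 2373 and 2454 FPKM in supernatants. The libraries thus fell into a low set of 122 to 238 FPKM, pellets 1 to 3 and supernatant 2, and a high set of 2373 to 4463 FPKM, pellet 4 and supernatants 1, 3 and 4. None of these 8 libraries lay between the sets, and both fractions had libraries in each. Bounds from Cufflinks were narrow on either side, with 4253 to 4629 FPKM for trp alone in pellet 4 and 182 to 198 FPKM in pellet 1.

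The log2 difference of trp was -2.36 (SE 1.33, limma adjusted p = 0.329). Lower values than this were found for 0.640% of features, and yet the groups overlapped. Same-numbered pairs differed by -4.90, -0.37, -4.24 and 0.06, so that pairs 1 and 3 carried the difference and pairs 2 and 4 showed almost none. The SD of the log2 level within a fraction was 2.20, larger than that of 98.2% of features. Leaving out 1 replicate number at a time gave log2 differences of -3.17 to -1.52, and none was called. In the unnamed replicates 5 and 6, the loci at trp had 198 and 460 FPKM in pellets and 261 and 287 FPKM in supernatants, which were all under the high set, 3 of them above the low set.

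The second channel gene, trpl, lies at 5641202 to 5653170 on 2R and makes a channel that moves out of the rhabdomere in light. It had 434, 370, 370 and 451 FPKM in pellets, against 219, 145, 205 and 220 FPKM in supernatants. As listed, the highest library was 1.22 times the lowest in pellets and 1.52 times in supernatants, where trp had 21.1 and 25.5 times. Cufflinks marked 6 of these 8 estimates as failed, all but pellet 4 and supernatant 1. The bounds of the failed estimates, 0 and at most 18.2 FPKM, do not hold the listed values, so trpl's spread is uncertain and it was not tested with the rest. In a fit that kept such values, which was chosen after seeing the data, its log2 difference was 0.04 (SE 0.18, limma adjusted p = 0.929). Both genes were highest in pellet 4 and lowest in supernatant 2 of their fractions on scaled values, but their swings differed in size. Log2 of trp over trpl was -1.04, -0.63, -0.64 and 3.30 in pellets and 3.83, -0.24, 3.53 and 3.48 in supernatants.

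**Figure D3:**
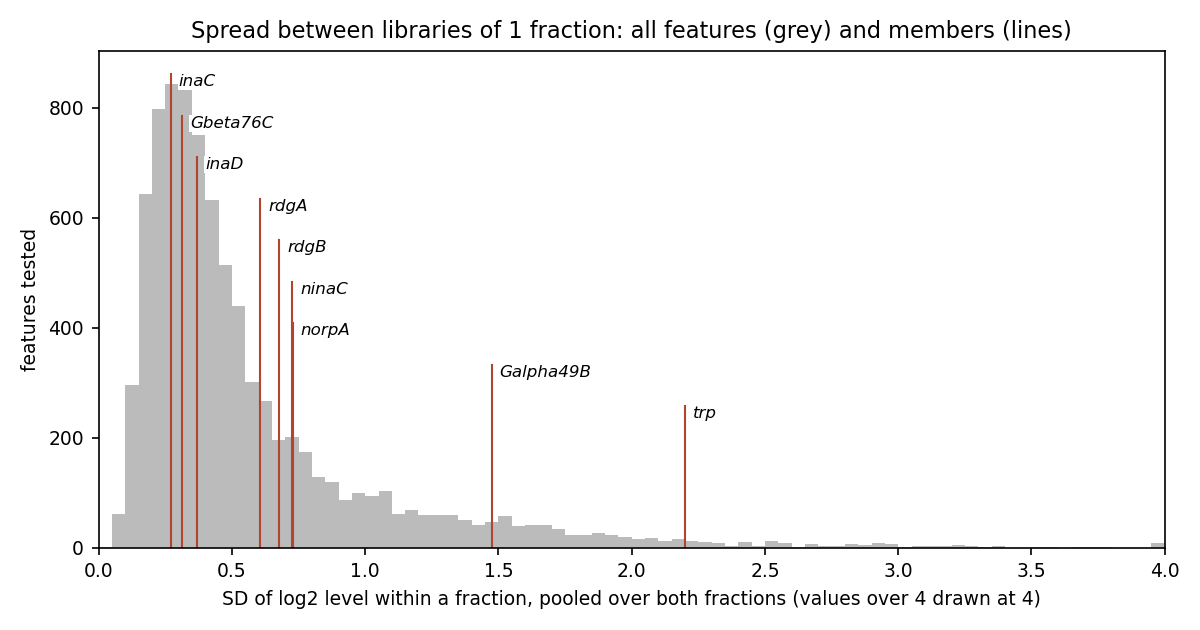
Number of tested features by the SD of their log2 level between libraries of the same fraction, pooled over pellet and supernatant (grey), with the 9 tested phototransduction genes as lines. The SD ran from 0.27 for inaC to 2.20 for trp, and the median of all features was 0.40.

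The PDZ scaffold gene inaD, which holds TRP, the phospholipase and the kinase together, lies at 18742886 to 18746317 on 2R. It had 123, 130, 161 and 170.5 FPKM in pellets and 77.2, 60.2, 111 and 101 FPKM in supernatants. Every pellet value was above every supernatant value as deposited, but scaled levels were lower in the pellet in 4 of 4 pairs, with log2 differences of -0.35, -0.23, -0.39 and -0.04. The fitted difference was -0.25 (SE 0.25, limma adjusted p = 0.580). With the values as deposited its sign turned, at 0.76 (adjusted p = 0.0279).

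The eye-specific protein kinase C gene inaC, at 12786088 to 12789178 on 2R, makes a kinase that helps to end the response. Its values were 16.3, 14.2, 14.6 and 17.3 FPKM in pellets and 6.18, 4.31, 6.86 and 7.79 FPKM in supernatants. Scaled levels were higher in the pellet in 4 of 4 pairs, with log2 differences of 0.36, 0.36, 0.15 and 0.34. The fitted difference was 0.30 (SE 0.21, limma adjusted p = 0.411), and with the replicate block the adjusted p was 0.0996. Thus inaC and inaD, whose proteins sit in the same complex, had small differences of opposite sign, and neither passed the test. The SD of inaC, 0.27, was the smallest of the tested members. Its estimate in supernatant 2 was loose, with Cufflinks' bounds of 0 and 2294 FPKM, and with values of that kind taken as missing, an alternative added after seeing the data, the difference was 0.17 (limma adjusted p = 0.630).

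A myosin fused to a kinase domain is the product of ninaC, which lies at 7377718 to 7384362 on 2L and is needed for fast response termination. It was at 206, 218, 491 and 577 FPKM in pellets, against 133, 104, 203 and 216 FPKM in supernatants. Replicates 3 and 4 were higher than replicates 1 and 2 in either fraction. Scaled pellet levels were lower than those of the supernatant in pairs 1 and 2 and higher in pairs 3 and 4, with a log2 difference of 0.08 (SE 0.45, limma adjusted p = 0.937). Its sign changed without replicate 3 or without replicate 4.

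The diacylglycerol kinase gene rdgA starts the return of the lipid product. It was joined in various libraries with CG42388, CG43255 and Rbm13, and this feature spans 8795724 to 8948718 on X. The feature had 689, 698, 1384 and 954 FPKM in pellets, against 158, 310, 238 and 421 FPKM in supernatants. Rbm13, listed apart in 2 libraries, had 11.5 and 76.5 FPKM, and CG42388, apart in 7, had 6.98 to 94.4 FPKM. Pellets were 2.25 to 5.83 times their supernatant partners. Scaled, the log2 difference was 0.73 (SE 0.38, limma adjusted p = 0.293), above 0 in 3 of 4 pairs. Without replicate 3 it was 0.45.

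The phosphatidylinositol transfer protein gene rdgB, at 13656300 to 13673779 on X, works in the same lipid cycle. Its values were 47.7, 40.8, 60.0 and 52.0 FPKM in pellets, against 19.8, 16.9, 57.8 and 52.3 FPKM in supernatants. Supernatants 3 and 4 were near their pellet partners, at pellet to supernatant ratios of 1.04 and 0.995, while in pairs 1 and 2 the ratio was 2.41. The log2 difference was -0.37 on scaled values (SE 0.43, limma adjusted p = 0.640), and 0.64 as deposited, not called on either scale. Leaving out 1 replicate number gave -0.58 to -0.19, with the smallest size without replicate 3.

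In replicates 5 and 6 the matched loci did not all have the order of replicates 1 to 4, where deposited pellet values were higher for inaD and Gbeta76C. These values are unscaled, and as deposited 93.7% of all tested features had a log2 difference above 0 in replicates 1 to 4. Without such a share for replicates 5 and 6, the change of order cannot be read as a result about these genes. Gbeta76C had 247 and 69.0 FPKM in pellets 5 and 6, against 431 and 97.1 FPKM in supernatants 5 and 6, and was lower in both pellets at these matched loci. Those loci were far above the gene's 6.40 to 20.2 FPKM in replicates 1 to 4. Another locus overlapping Gbeta76C in each library, not matched at that overlap, had 122 and 71.0 FPKM in pellets 5 and 6. In supernatants 5 and 6 it had 104 and 32.3 FPKM, so the order of Gbeta76C depends on which locus is taken. The scaffold gene inaD had 171 and 423 FPKM in pellets 5 and 6, against 267 and 277 FPKM in the supernatants, lower in pellet 5 and higher in pellet 6. By contrast ninaC, at 622 and 765 FPKM in those pellets against 137 and 396 FPKM in the supernatants, was higher in both pellets at the matched loci. In supernatant 5 another locus at ninaC, not matched at that overlap, had 788 FPKM, above pellet 5. The order in replicate 5 thus depends on which locus is taken. Pellet 5 had 81.8 FPKM for inaC and 422 FPKM for trpl, against 75.7 and 395 FPKM in supernatant 5. Supernatant 6 had 40.2 FPKM for inaC and 268 FPKM for trpl. These inaC values were also above the 4.31 to 17.3 FPKM of inaC in replicates 1 to 4. The rdgA locus had 193 and 1018 FPKM in pellets 5 and 6 and 105 FPKM in supernatant 6, and Galpha49B was matched in pellet 5 alone, at 57.9 FPKM. No locus matched norpA or rdgB at that overlap.

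Many members were high or low in the same libraries of a fraction. On scaled values, 7 of 10 had their highest pellet level in pellet 4, where 26.8% of all tested features did, and 7 of 10 had their lowest in pellet 2, where 23.2% of features did. Supernatant 2 was likewise the lowest for 7 of 10, against 23.6% of features, and supernatants 3 and 4 were the highest for 3 and 5. Members do not count as independent here, since all of them are read from the same libraries. Of the 10 photoreceptor markers, 5 were highest in pellet 4 and 5 in pellet 3, while 5 were lowest in pellet 1, 3 in pellet 2, 1 in pellet 3 and 1 in pellet 4. In supernatants 6 markers were highest in replicate 3, 3 in replicate 4 and 1 in replicate 1, and 6 were lowest in replicate 2. The markers did not move as 1, since the rhodopsin gene ninaE was highest in pellet 4, at a scaled 28058 against 7546 to 8083 in the other 3 pellets, while chp, a photoreceptor surface protein, was lowest there, at 1.78 against 2.21 to 2.85. The part of photoreceptor content in the members' values was not tested.

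Locus length moved with the difference between the fractions. Over all 8597 tested features, Spearman's rho between the span of the locus and the log2 difference was 0.36, given as a description across features, which share their libraries. The median log2 difference was -0.19 in the shortest of 4 equal groups of loci (0.106 to 1.36 kb) and 0.43 in the longest (6.84 to 394 kb). Of the 9 tested members 5 were in the longest group, which were norpA, trp, Galpha49B, rdgA and rdgB, with differences of 0.94, -2.36, 0.34, 0.73 and -0.37. The trp feature was in that group only with capa joined, at 7.43 kb. Entries of trp without capa spanned 5.77 to 5.88 kb, under the 6.84 kb where the group starts. Gbeta76C, at 2.42 kb, inaC, at 3.09 kb, and inaD, at 3.43 kb, had the shortest loci and were also the 3 with the smallest SD. The part of locus length in the members' values was not tested.

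Several cascade proteins have a close relative, so 5 members were set against a relative within a library, and trp against trpl. Such a ratio does not depend on how libraries are scaled, apart from the added 0.5. For 6 pairs, an exact two-sided permutation test compared 4 pellet with 4 supernatant libraries, where the smallest p possible is 0.0286. After adjustment over the 6 pairs none passed 0.05, and 2 pairs at the smallest p could not have passed.

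In 2 pairs the fractions did not overlap. Log2 of inaC over Pkc53E, a conventional protein kinase C (its feature includes CG43789), was -3.91, -3.58, -3.90 and -3.90 in pellets, against -2.38, -2.91, -3.25 and -2.96 in supernatants. The mean difference was -0.95 (exact permutation p = 0.0286, adjusted p = 0.0857, lower in 4 of 4 pellet libraries), so the difference was not called. Pkc53E itself had a log2 difference of 1.25 (SE 0.31, limma adjusted p = 0.0653), or 0.0304 with the replicate block. Log2 of rdgA over Dgk, another diacylglycerol kinase, was 6.85, 7.80, 6.16 and 6.83 in pellets, against 8.78, 9.89, 7.80 and 10.2 in supernatants. That difference was -2.25 (exact permutation p = 0.0286, adjusted p = 0.0857). It leans on the added 0.5, since Dgk was listed at 0 FPKM in 3 of 4 supernatants and at 0.721 FPKM in supernatant 3, against 5.25, 2.32, 18.8 and 7.75 FPKM in pellets.

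The other 4 pairs overlapped. The mean difference was -2.40 for trp over trpl (exact permutation p = 0.0571, adjusted p = 0.114), with trpl's failed estimates used. For norpA over Plc21C, another phospholipase C gene, it was 0.13 (exact permutation p = 0.857). In S2 cells norpA, at 5.84 to 9.46 RPKM, was above Plc21C, at 2.75 to 3.87 RPKM. Gbeta76C over Gbeta13F, the broadly expressed beta subunit, had ratios of -6.45 ± 0.19 in pellets and -6.45 ± 0.44 in supernatants (SD, n = 4 each; exact permutation p = 1). Galpha49B over Galphao, an alpha subunit abundant in neurons, differed by -0.59 (exact permutation p = 0.457). Adjusted over the 6 pairs these last 3 had p of 1, 1 and 0.686.

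**Figure D4:**
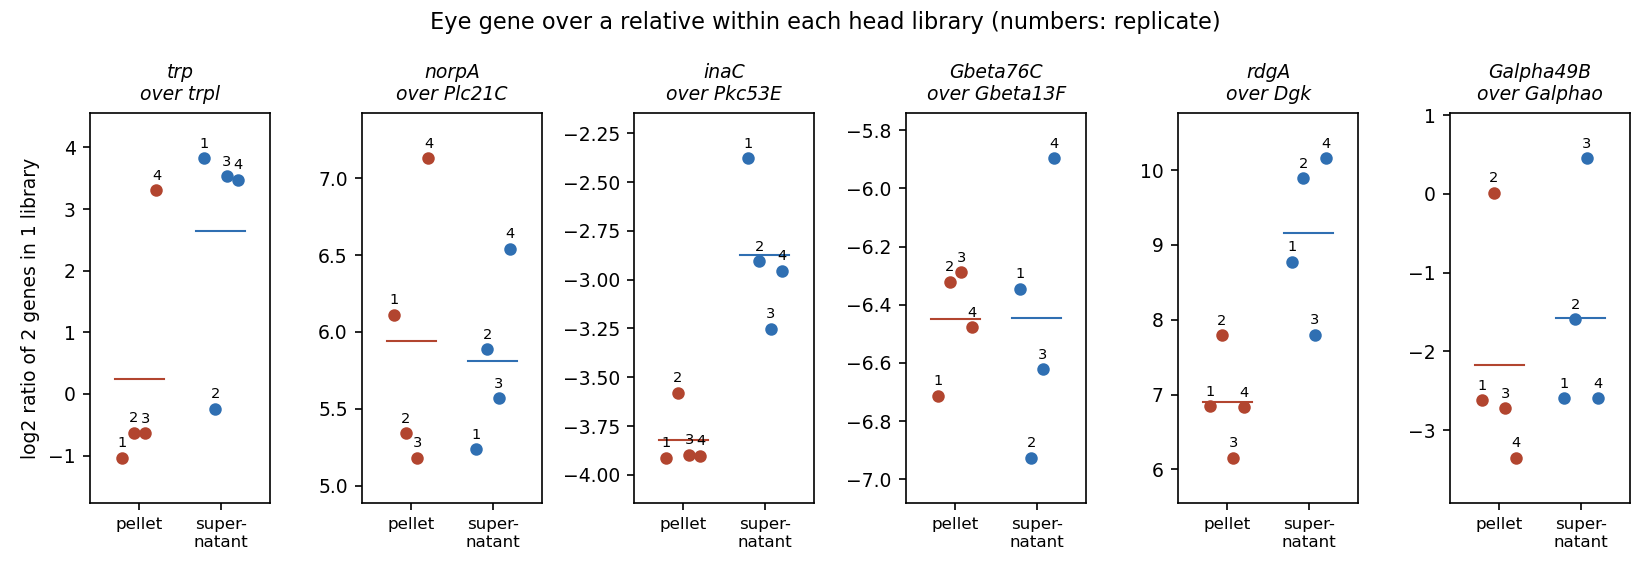
Log2 ratio of a cascade gene to a related gene within each head library (scaled FPKM + 0.5, a separate scale in each panel), for pellets and supernatants. Numbers are replicates and lines are means. The fractions do not overlap for inaC over Pkc53E and rdgA over Dgk, and trp over trpl splits into values of 3.30 to 3.83 and values below 0 in both fractions.

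The other genes of the pathway are given by list, where 2.05% of all features were called higher and 1.77% lower. Of 19 genes of the rhodopsin cycle, 18 were tested, 1 was higher in pellets and 0 were lower. The 1 was Gprk2, a G protein-coupled receptor kinase, with 11.96, 11.9, 12.4 and 10.2 FPKM in pellets against 3.06, 2.79, 2.88 and 2.23 FPKM in supernatants (log2 difference 0.98, SE 0.17, limma adjusted p = 0.0183). Leaving out any 1 replicate number ended that call, while the difference stayed at 0.89 to 1.07. Gprk2 was also at 14.5 to 22.3 RPKM in S2 cells, so its RNA is not limited to photoreceptors. The other receptor kinase gene listed, Gprk1, had a log2 difference of 0.04 (limma adjusted p = 0.976). The median log2 difference of the list was 0.01. With the replicate block 3 were higher, Gprk2, the arrestin Arr1 (0.85, adjusted p = 0.0162) and the ultraviolet opsin Rh4 (0.49, adjusted p = 0.0344). Under the same block 2 were lower, the green opsin Rh6 (-0.64, adjusted p = 0.0297) and ninaB (-0.56, adjusted p = 0.0301), the enzyme that makes the chromophore from carotenoids. Over all features 6.92% were higher and 8.32% lower with the block.

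Among 18 other cascade genes, 16 were tested and 0 were called with limma, with or without the block. At an unadjusted p under 0.05 there were 2, the diacylglycerol lipase gene inaE and CdsA, whose enzyme makes CDP-diacylglycerol, and 3 with the block. Over all features those shares were 22.4% and, with the block, 35%. The list's median log2 difference was 0.29. Its most abundant members were calmodulin (Cam, in a feature with CR43900) at a scaled 3854 ± 1132 in pellets and 4561 ± 623 in supernatants, and Ggamma30A, the Gq gamma subunit, in a feature with CG43733, at 1186 ± 279 and 1047 ± 265 (SD, n = 4 per fraction). The feature of inaF-A to inaF-D, a locus needed for TRP channel function, had the next highest mean, with 720, 104, 102.2 and 83.5 FPKM in pellets and 38.6, 34.4, 72.6 and 70.4 FPKM in supernatants (log2 difference 0.62, limma adjusted p = 0.609). That mean rests on pellet 1.

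Of 18 relatives listed as widely expressed, 14 were tested, 1 was higher in pellets, Dgk (log2 difference 2.98, SE 0.66, limma adjusted p = 0.0478), and 0 were lower. Over all features 2.05% were higher and 1.77% lower. Not all of these relatives were high in S2 cells, where Pkc53E was at 0.0176 to 0.398 RPKM. The call on Dgk was lost under 9 alternatives, and its difference was 1.77 with exact 0 as missing and 4.68 with a pseudocount of 0.1. The median of this list was 0.61. At an unadjusted p under 0.05 there were 8 of 14, against 22.4% of all features. With the replicate block 5 were called higher, Pkc53E, Pkc98E, Dgk, Galphao and Gbeta5, against 6.92% of all features. For the neuron markers elav (log2 difference 1.004, limma adjusted p = 0.0232) and Syt1 (1.77, adjusted p = 0.0153), 2 of 8 were higher and the median was 0.88, while 0 of 9 photoreceptor markers were called and their median was 0.22. The neuron markers summed to a scaled 2281 to 3766 in pellets and 1520 to 2564 in supernatants. Most of these sums was nrv3, at scaled means of 2208 and 1538, which was not called without the block (log2 difference 0.51, limma adjusted p = 0.258). Of 6 glia markers 0 were called, with a median of 0.73 and 3 at an unadjusted p under 0.05, against 22.4% of all features. With the block 5 of 8 neuron markers, Gs2 of the glia list (adjusted p = 0.0331) and Arr1 of 9 photoreceptor markers were higher. The part of neuron and glia content in the relatives' values was not tested. Of the markers of other tissues, 0 of 6 for muscle and 0 of 5 for blood cells were called, and Yp1 of 6 for fat body and yolk and Cpr72Ec of 4 for pigment cells and lens were lower in pellets (log2 differences -0.99 and -1.02). Of 9 other TRP channel genes, 7 were matched in all 8 head libraries, and of these only wtrw and pyx reached the minimum level for a test, at scaled means of 1.27 and 1.18 in pellets and 1.61 and 1.01 in supernatants, and neither was called.

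S2 cells gave a reference without photoreceptors. Over the 12028 head features whose genes all have an S2 value, ninaC, trp, trpl, norpA, inaD and rdgA ranked above 93.6% to 99.8% of features in every head library. Galpha49B and rdgB ranked above 79.7% to 97.5%, and Gbeta76C and inaC above 65.3% to 79.3%. In heads trp and rdgA were ranked as features with their joined neighbours, in S2 cells as single genes. The head ranks of trpl used its failed estimates. Among the 13792 genes of the S2 tables, ninaC, trp, trpl and inaC ranked no higher than 35.9%, and inaC was listed at 0 in 3 of 4. There inaD and Gbeta76C ranked at 33.9% to 45.4%, and norpA, Galpha49B, rdgA and rdgB at 50.5% to 67.6%. The highest S2 value was 0.0519 RPKM for trp, 0.0785 RPKM for trpl, 0.0664 RPKM for ninaC and 0.0156 RPKM for inaC. The scaffold gene inaD was at 0.104 and 0.130 RPKM with Orb2B and 0.320 and 0.119 RPKM in background, and Gbeta76C at 0.289 and 0.145 RPKM with Orb2B and 0.122 and 0.0518 RPKM in background. FPKM and RPKM come from tables normalized apart, so no fold is given between head and S2 cells.

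**Figure D5:**
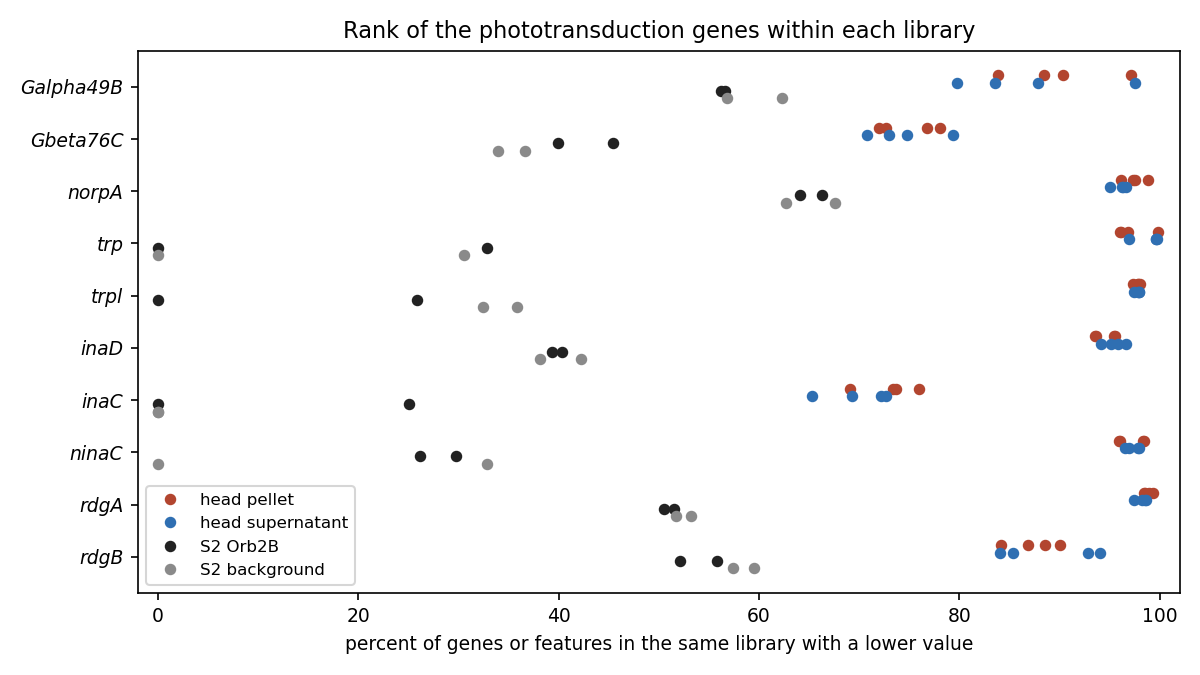
Percent of genes or features of the same library with a lower value, for each phototransduction gene in head pellets, head supernatants, S2 Orb2B and S2 background libraries. Each point is 1 library. Head points of trp and rdgA are those of features with joined neighbours, and those of trpl include failed estimates. All head points lie between 65.3% and 99.8%, and all S2 points between 0% and 67.6%.

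The other 4 members, norpA, Galpha49B, rdgA and rdgB, reached the level for a test in S2 cells. The steadiest was norpA, at 5.84 and 8.40 RPKM in Orb2B cells against 9.46 and 7.57 RPKM in background cells. Those values overlap, with a log2 difference of -0.17 (SE 0.24, limma adjusted p = 0.590). Galpha49B was at 2.24 and 2.93 RPKM in Orb2B cells against 3.66 and 7.30 RPKM in background cells (log2 difference -0.82, SE 0.29, limma adjusted p = 0.0583). The kinase gene rdgA was at 0.811 and 1.26 RPKM in Orb2B cells against 2.23 and 1.81 RPKM in background cells (log2 difference -0.67, SE 0.27, limma adjusted p = 0.0831).

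With 1 library left out at a time, Galpha49B was called only without background replicate 1 (limma adjusted p = 0.00961, log2 difference -1.21), and adjusted p was 0.0729 to 0.227 without each of the other 3. In such fits a group has 1 library, which is assumed to vary like the other group.

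With all 4 libraries only rdgB passed, with 1.10 and 2.64 RPKM in Orb2B cells against 3.91 and 5.50 RPKM in background cells (log2 difference -1.13, SE 0.32, limma adjusted p = 0.0240). That made 1 of 4 members lower and 0 of 4 higher in Orb2B cells, where 19.5% of all 7068 genes were lower and 18.3% were higher, so the count is near the background. Of 6 blood cell markers tested in S2 cells, 5 were lower and 0 higher with Orb2B, with a median log2 difference of -3.31. The 2 S2 groups thus differed in blood cell markers too, and the part of this in the members' values was not tested. The call on rdgB was lost without Orb2B replicate 1, where the log2 difference was -0.68 (limma adjusted p = 0.241), and when background replicate 2 was left out, where it was -0.96 (adjusted p = 0.110). It was kept without Orb2B replicate 2, at -1.55 (adjusted p = 0.000672), and when background replicate 1 was left out, at -1.29 (adjusted p = 0.0438).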

How the data were processed

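Messenger RNA was measured in 12 head and 4 S2 libraries. The deposited head values are FPKM of genes or assembled loci, with bounds and a status, and the deposited S2 values are RPKM of genes. Per the submitters' processing notes, CASAVA 1.9.1, TopHat and Cufflinks served the heads, CASAVA 1.9.1, Bowtie, cutadapt and Novoalign the S2 cells, and the build was dm3; settings are not given in the sources used here. Genes that an entry joined in any library were merged and their FPKM summed. The 32 features with a failed estimate, trpl among them, were left out of the tests. Entries without a gene name, which held 22.3% to 97.2% of a library's FPKM total, were not used either.

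Scaling used the median ratio of a library to the features' geometric means (factors of 1.28 to 1.65 for pellets and 0.654 to 0.736 for supernatants). The test was limma (version 3.58.1, R version 4.3.3), two-sided and with a variance trend, of log2 scaled values after adding 0.5, for features averaging 1 or more. Calls had an adjusted p under 0.05 over all features. The added 0.5 makes differences of low genes too small. Depth is unknown for heads. In S2 cells the commonest ratio of low RPKM values, read as that of single reads, put Orb2B replicate 2 and background replicates 1 and 2 at 1.69, 1.02 and 0.798 times the depth of Orb2B replicate 1.

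Same-numbered pellet and supernatant libraries deviated together, with correlations across features of 0.167, 0.193, 0.326 and 0.199 for replicates 1 to 4. Differently numbered ones had -0.246 to 0.143, with 0.143 for pellet 1 and supernatant 2 and 0.115 for pellet 2 and supernatant 1. The numbers were taken to pair head libraries, from the data and not from the labels, and replicates 1 and 2 are the less clearly told apart. The named genes are the 10 members, both genes of each ratio pair, and for each list of pathway genes those past the threshold in heads or, with none, the 3 with the highest mean. Genes called only with the block or at an unadjusted p, and the markers, were added after seeing their values. Members, lists and pairs were chosen with earlier results of these data known. The procedure was tested on simulated data. Alternatives were pseudocounts of 0.1 and 1, other minimum levels, unscaled values, the replicate block, quantile normalization, a fit with no variance trend, exact 0 as missing, each replicate left out, and replicates 5 and 6 joined by locus overlap. Using failed estimates, dropping values with a lower bound of 0, and the entries that hold trp or rdgA were added after seeing the data. The last left out neighbours' separate entries. It still held the neighbours joined to rdgA in every library and to trp in supernatant 3. Of the members' FlyBase identifiers 9 of 10 matched the reference name table, where Galpha49B is Galphaq and Galphao is the files' G-oalpha47A. Tables and figures used Python 3.11.15, pandas 2.3.3, numpy 2.4.6, scipy 1.17.1 and matplotlib 3.10.9.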

Additional observations from a re-analysis of the deposited data

Results flagged for a closer look

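In 8 of 36 groups of 4 libraries, 1 library stood apart from the other 3 by Dixon's criterion. About 1 of 20 groups of independent, normally distributed values would meet it. The groups here are unlogged FPKM and ratios that share genes and libraries, so that rate does not apply to them. The share over all features was not worked out. In the pellet these were norpA at 912 FPKM and trp at 4463 FPKM, both in replicate 4, and Galpha49B at 331 FPKM in replicate 2. In the supernatant they were Galpha49B at 158 FPKM and Dgk at 0.721 FPKM, both in replicate 3, where Dgk was listed at 0 in the other 3 libraries. Log2 of trp over trpl stood apart at 3.30 in pellet 4 and at -0.24 in supernatant 2. Log2 of inaC over Pkc53E stood apart at -3.58 in pellet 2.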

How the results depend on the processing

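In heads, 5 members were called with the values as deposited and none under the other alternatives, which tested 9 members each except where stated. That scaling moved the calls of all features to 4418 higher and 43 lower, against 176 and 152 with scaled values, and turned inaD to 0.76 and rdgB to 0.64. With the replicate block 595 were higher and 715 lower. Joining replicates 5 and 6 left 2708 features and 3 members, with 68 features higher and 95 lower, and put Gbeta76C at -0.072, inaD at -0.055 and ninaC at 0.69. The ninaC value took the locus of 137 FPKM in supernatant 5 and left out the one at 788 FPKM. The Gbeta76C value likewise left out the unmatched locus in each library of replicates 5 and 6. Without 1 replicate number at a time, 14 to 98 features were higher and 41 to 117 lower. Over the same 4 settings 3 members changed sign: ninaC (-0.10 to 0.23, and -0.00012 without replicate 3), Gbeta76C (-0.013 to 0.086, the lowest without replicate 3) and Galpha49B (-0.36 to 1.21, the lowest without replicate 2). Dgk lost its call under 9 alternatives (adjusted p of 0.00255 to 0.363 over all).

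Without 1 replicate, log2 ratios ran from -0.11 to 0.36 for norpA over Plc21C, -0.21 to 0.19 for Gbeta76C over Gbeta13F and -1.32 to 0.27 for Galpha49B over Galphao. No call was possible there, since the smallest exact p is 0.1 with 3 against 3, nor with the block, where it is 0.125 over 4 pairs. With the other pseudocounts no pair was called. In heads the block changed no call of a member.

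In S2 cells, replicate numbers shared a correlation of only 0.05. There 2 members were lower with the replicate block (rdgB and Galpha49B, the second at an adjusted p of 0.0188) and without a variance trend (rdgB and rdgA), and 0 with no minimum level, with a minimum of 5 (1 member tested, 903 genes lower) and with quantile normalization, where norpA was at 0.0068. Leaving out 1 library gave 0 to 2 members lower, 596 to 1659 genes higher and 821 to 1578 lower, and put norpA at -0.39 to 0.04. Among these, norpA was at 0.022 without Orb2B replicate 1 and 0.037 without background replicate 1. The unknown depth of the head libraries limits what can be said of Cufflinks' loose estimates.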
